A study of Caenorhabditis elegans and Caenorhabditis briggsae with 12 samples.

Results

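Small RNA silencing in *C. elegans* runs through Argonaute proteins, which carry short guide RNAs to matching transcripts. Dicer and its partners cut double-stranded RNA into primary small RNAs, RNA-dependent RNA polymerases copy the targets into a secondary pool, and mutator factors supply the templates for that copying. Channel and trafficking proteins move double-stranded RNA between cells, and nuclear factors take silencing to the gene itself. P granules, the RNA-rich bodies at the nuclei of germ cells, are built by PGL and GLH proteins and hold several of the germline Argonautes.

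The genes described here are the small RNA silencing and P granule genes, taken by name from the families *alg*, *wago*, *ppw*, *prg*, *hrde*, *nrde*, *rde*, *rrf*, *mut*, *eri*, *sid*, *drh*, *sago*, *vsra*, *ergo*, *csr*, *dcr*, *rsd*, *pgl*, *glh*, *deps* and *henn*. They number 65 of the 20213 genes in the *C. elegans* table. By role they are 20 Argonautes, 14 polymerases, Dicer and Dicer partners, 11 mutator and maturation factors, 8 P granule genes, 7 import and spreading genes, 3 nuclear factors other than Argonautes, and 2 genes of no assigned role, *hrde-2* and *hrde-4*. Many members are known from the germline, which is small in larvae of the L2 stage.

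RNA was sequenced from *C. elegans* of the wild-type strain N2, taken as whole worms at the L2 larval stage. There were 3 biological replicates kept at 20 °C (NHS) and 3 moved to 34 °C for 30 min (HS), and the larvae carried no transgene or deletion. *C. briggsae* larvae of strain AF16 were treated alike, with 3 replicates a group, and are used here only for partner genes. The question was which members differed between HS and NHS.

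Values are normalized counts, which are gene-level read estimates divided by the authors' scaling factor for each library. They summed to 32228400 to 32534000 in the NHS libraries and 39420300 to 43048800 in the HS libraries of *C. elegans*, at a depth estimated from the lowest values at 28565000 to 43941500 reads. The lowest correlation between replicates was 0.9903 for NHS and 0.9828 for HS. Genes at 0 made up 12.2 to 12.9% of the table in NHS libraries and 5.62 to 7.19% in HS libraries. Log2 fold changes (HS against NHS, ± SE) are on the scale of log2(normalized count + 1), and adjusted p-values come from limma over all 17551 genes with a mean of at least 2, with 3 libraries a group. Up- and down-regulated genes changed by more than 2-fold with an adjusted p under 0.01, and genes called higher or lower here met that p-value at any fold change. The libraries are of whole larvae, so fewer cells of a type and less RNA per cell cannot be told apart.

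All 65 members passed the filter on low values, which takes the mean over NHS and HS libraries together. *wago-10* and *alg-4* passed it only through their HS libraries, with NHS means of 1.23 and 0.45. Of the 65 members, 3 were up-regulated by heat shock, the Argonaute genes *wago-5*, *wago-10* and *alg-4*, and 0 were down-regulated. Over all genes tested, 10.2% were up-regulated and 2.77% down-regulated. Without the requirement on fold change, 5 members were higher, where 15.8% of all genes were, and 21 were lower, where 12.9% of all genes were. No test at this threshold was passed by the other 39. The median log2 fold change was -0.10 over the members and 0.04 over all genes tested.

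These shares differed with the level of a gene, taken as its mean over all 6 libraries, HS included. Among genes with a mean of 2 to 10 normalized counts 21.8% were up-regulated, and among those with a mean of 10 to 100 it was 20.1%. The 3 up-regulated members were among the 4 members with a mean under 100, the fourth being *alg-3*. Of the 61 members with a mean of at least 100, 0 were up- and 0 down-regulated, against 2.76% and 2.46% of all genes at that level. Lower values were found for 21 of these 61 members (34.4%), against 18.8% of all genes at that level, and higher values for 2 (3.28%), against 11.7%. Among the 61, all HS libraries were below the NHS libraries in 28 (45.9%, all genes at that level 34.1%) and above them in 7 (11.5%, all genes at that level 23.8%).

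In 28 of 65 members every HS library was below every NHS library, as for 25.5% of all genes tested, and in 10 every HS library was above, as for 30.6%. The groups overlapped in 27. Summed over the members, the NHS libraries held 78571 to 81771 normalized counts and the HS libraries 71744 to 72608. As a share of each library's sum this was 0.244 to 0.251% in NHS and 0.167 to 0.182% in HS, with a larger total in the HS libraries.

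How many members pass depends on the scaling of the libraries. With all libraries scaled to equal totals the median of all genes moved from 0.04 to -0.31 on the log2 scale, and with equal upper quartiles it moved to 0.25. The lower members then numbered 44 (all genes 37.3%) and 2 (all genes 5.72%), and the higher ones 3 (9.64%) and 13 (27.5%). Relative to the median of all genes, the median of the members was -0.14 as deposited, -0.15 with equal totals and -0.14 with equal upper quartiles. Each scaling moves all genes nearly alike, so these 3 relative medians lie close by construction. *alg-1* and *drh-1* were the 2 members lower under all 3 scalings, and *wago-5*, *wago-10* and *alg-4* were up-regulated under all 3, where equal totals gave 8.58% of all genes up-regulated and equal upper quartiles 12.5%. Equal totals moves all genes down, so the negative sign of the 21 lower members was fixed there. With equal upper quartiles all 21 stayed negative, *dcr-1* at only -0.0022, but only *alg-1* and *drh-1* passed.

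The number of lower members also depended on single libraries. In fits to 5 libraries it was 9, 6 and 12 when NHS replicate 1, 2 or 3 was left out, and 10, 14 and 19 when HS replicate 1, 2 or 3 was. The number of higher members was 3 without NHS replicate 2, NHS replicate 3 or HS replicate 1. The 3 up-regulated genes were called in each of these 6 fits.

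**Figure D1:**
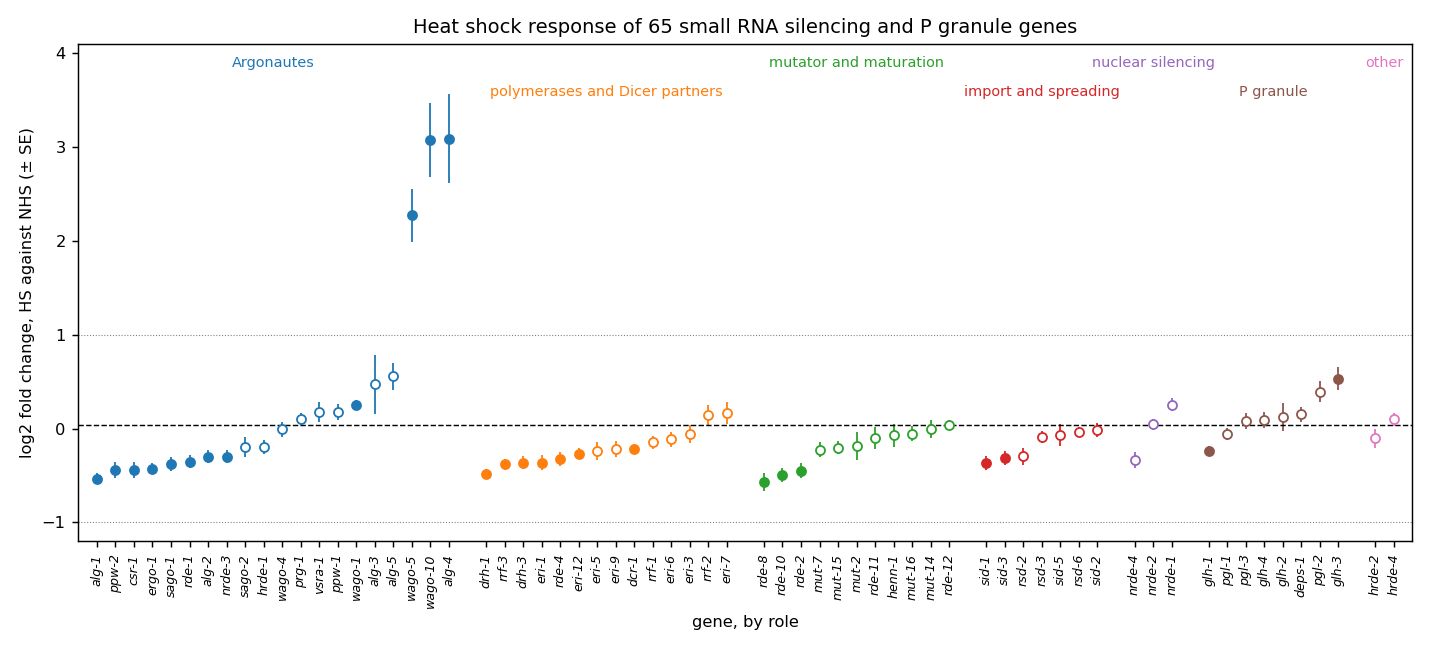
Log2 fold change (HS against NHS, 3 libraries each) of the 65 members by role, with bars of 1 SE. Filled circles mark members with an adjusted p under 0.01, dotted lines a 2-fold change, and the dashed line the median of all genes tested at 0.04. *wago-5*, *wago-10* and *alg-4* lie above the upper dotted line, and the other 62 members between -0.56 and 0.56.

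Argonautes held the 3 up-regulated members and the widest range of log2 fold change, from -0.53 to 3.09. Of the 20 genes, 4 were higher (all genes tested 15.8%), 8 were lower (12.9%) and 8 did not pass. Their median was -0.14 relative to that of all genes, and -0.08 without HS replicate 3. The 17 that were not up-regulated had a median of -0.23 relative to all genes.

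*wago-5*, a worm-specific Argonaute of the WAGO class, lies on chromosome II from 5812375 to 5815482 on the minus strand (ce11). Its normalized counts were 16.7, 25.05 and 18.6 in the NHS libraries and 99.6, 68.6 and 145 in the HS libraries. Every HS library was more than 2 times any NHS library. The log2 fold change was 2.27 ± 0.28 (limma, adjusted p = 0.00026, n = 3 and 3).

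*wago-10*, a WAGO-class gene known from the male germline, lies on chromosome V from 343428 to 347640 on the plus strand. It had 1.97, 0.84 and 0.89 normalized counts in the NHS libraries and 22.0, 15.6 and 15.2 in the HS libraries. The groups stood far apart, but the NHS values rest on very few reads. About 4 reads in the NHS libraries stood against 49 in the HS libraries, a depth-corrected ratio of 14.99 with an exact 95% counting interval of 5.50 to 57.2. The fitted log2 fold change was 3.08 ± 0.40 (limma, adjusted p = 0.00029, n = 3 and 3) and depends on the pseudocount of 1, at 3.43 with a pseudocount of 0.5 and 1.85 with 5.

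*alg-4*, an Argonaute of sperm development, lies on chromosome III from 9887209 to 9891424 on the minus strand. It had 0.70, 0 and 0.63 normalized counts in the NHS libraries and 7.52, 15.95 and 10.8 in the HS libraries. The gene was close to undetected at 20 °C and low, but above all NHS libraries, in each HS library. About 1 read in the NHS libraries stood against 31 in the HS libraries, a ratio of 37.9 with an exact 95% counting interval of 6.32 to 1546. The intervals cover counting error only. limma gave a log2 fold change of 3.09 ± 0.47 (adjusted p = 0.00076, n = 3 and 3), which was 3.70 with a pseudocount of 0.5 and 1.56 with 5.

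*alg-3*, a close relative that acts with *alg-4* in sperm development, was chosen for mention after its values were seen. Its counts were 16.004, 14.4 and 13.2 in NHS and 27.5, 13.4 and 23.3 in HS libraries. The groups overlapped, and the log2 fold change of 0.47 ± 0.32 did not pass (adjusted p = 0.25, limma). Reads that match both of these related genes were divided between them by estimation, which leaves the split uncertain.

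Markers of adult tissue were measured beside these weakly expressed Argonautes. Of 6 yolk and sperm genes, 4 were tested and 2 were up-regulated, the yolk protein genes *vit-2* and *vit-5*. Both had a mean of 10 to 100, where 20.1% of all genes were up-regulated. *vit-5*, with an NHS mean of 1.54, passed the filter only through its HS libraries. The summed level of the 6 was 58.3 to 68.2 normalized counts in NHS and 141 to 207 in HS libraries. *msp-3*, a major sperm protein gene, was at 0 in all 6 libraries, and *msp-142*, another, lay between 0 and 3.12. The sperm gene *spe-9* had 38.1, 53.5 and 46.4 in NHS and 51.8, 80.7 and 97.9 in HS libraries. Its groups overlapped, and its log2 fold change of 0.69 ± 0.25 did not pass (limma, adjusted p = 0.046). *vit-6* had all HS libraries above the NHS ones but did not pass either (0.85 ± 0.26, adjusted p = 0.022). Of 12 germline markers, all with a mean of at least 100, 0 were called in either direction, 2 were lower and 0 higher. Of all genes at that level, 18.8% were lower and 11.7% higher. The germline markers had a median log2 fold change of 0.02 and summed to 7441 to 7746 in NHS and 7076 to 7440 in HS libraries. The part of such cells in the rise of *wago-10* and *alg-4* was not tested.

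Among the 16 Argonautes with a mean of at least 100, 8 were lower and 1 was higher after heat shock. Of all genes at that level, 18.8% were lower and 11.7% higher. *alg-1*, a main Argonaute of microRNAs, on chromosome X from 13949110 to 13956261, had 4133, 4245 and 4173 normalized counts in NHS and 2689, 2935 and 3072 in HS libraries. The HS mean was 69.3% of the NHS mean, and the groups did not overlap. Its log2 fold change was -0.53 ± 0.06 (limma, adjusted p = 0.00016, n = 3 and 3), the lowest of the Argonautes. *alg-2*, its partner in the microRNA pathway, went from 2394, 2723 and 2419 to 1949, 2032 and 2132, a log2 fold change of -0.30 ± 0.07 (adjusted p = 0.0059). The sequences of *alg-1* and *alg-2* are closely related, and reads shared between them were also split by estimation. *alg-5*, another gene of this subfamily, differed in sign, with 293, 275 and 318 in NHS and 466, 344 and 509 in HS libraries. Every HS library of *alg-5* was above the NHS ones, but its log2 fold change of 0.56 ± 0.14 missed the threshold (adjusted p = 0.011), and the gene was chosen after its values were seen.

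Primary Argonautes of other pathways were also measured. *rde-1*, which binds the first small RNAs cut from foreign double-stranded RNA, had 1621, 1645 and 1666 normalized counts in NHS and 1232, 1236 and 1401 in HS libraries, a log2 fold change of -0.35 ± 0.07 (limma, adjusted p = 0.0025). *ergo-1*, which binds endogenous small RNAs in eggs and embryos, was also lower, with a log2 fold change of -0.43. *prg-1*, which encodes the Piwi protein that binds piRNAs, did not pass. It had 1603, 1573 and 1624 in NHS and 1695, 1837 and 1630 in HS libraries, with a log2 fold change of 0.10 ± 0.06 short of the threshold (adjusted p = 0.21) and a negative one of -0.25 with equal totals.

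Secondary Argonautes, which bind the amplified small RNAs, went both ways. *csr-1*, which binds small RNAs against expressed germline genes, had 1992, 2034 and 1744 normalized counts in NHS and 1390, 1556 and 1313 in HS libraries, 73.8% of the NHS mean (log2 fold change -0.44 ± 0.08, limma, adjusted p = 0.0024). *ppw-2*, of the WAGO class, had 2627, 2611 and 2241 in NHS and 1967, 1901 and 1648 in HS libraries (-0.44 ± 0.09, adjusted p = 0.0029). For both genes every HS library was below every NHS library. *nrde-3*, the nuclear Argonaute of somatic cells, went from 1385, 1478 and 1267 to 1077, 1165 and 1112 (-0.30 ± 0.07, adjusted p = 0.0085). *hrde-1*, the nuclear Argonaute of the germline, had 2001, 2036 and 1886 in NHS and 1762, 1874 and 1551 in HS libraries. Its groups did not overlap either, but its log2 fold change of -0.19 ± 0.08 did not pass (adjusted p = 0.063).

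*wago-1*, a P granule Argonaute chosen for mention after its values were seen, was the other higher member of this group. It had 2293, 2295 and 2225 normalized counts in NHS and 2693, 2810 and 2621 in HS libraries, a log2 fold change of 0.25 ± 0.05 (limma, adjusted p = 0.0046) that became -0.10 with equal totals. *sago-1* was lower, with a log2 fold change of -0.38. *sago-2*, *wago-4*, *vsra-1* and *ppw-1* had log2 fold changes from -0.20 to 0.18 and did not pass.

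**Figure D2:**
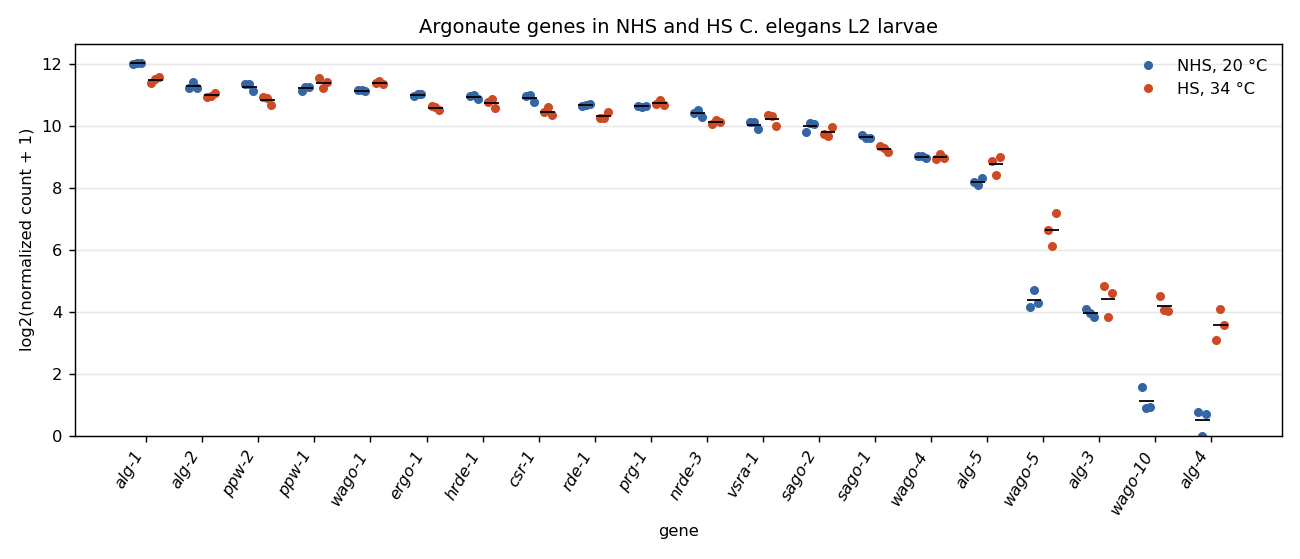
Level of each of the 20 Argonaute genes in every library, as log2(normalized count + 1), with NHS libraries in blue, HS libraries in red and a bar at each group mean. *wago-5*, *wago-10* and *alg-4*, at the right, are the 3 whose HS libraries lie more than 2-fold above the NHS libraries. Their NHS means were 20.1, 1.23 and 0.45 normalized counts.

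In the partner genes of *C. briggsae*, as the study's table of orthologs pairs them, the values were as follows. CBG09950, paired with *alg-4*, had 2.63, 1.89 and 3.08 normalized counts in NHS and 12.2, 8.63 and 7.15 in HS libraries. All HS libraries were above the NHS ones, and the log2 fold change of 1.53 ± 0.40 did not pass the threshold (limma, adjusted p = 0.023, n = 3 and 3). *Cbr-hrde-1*, paired with *wago-10*, was abundant and lay at 3491 to 3596 in NHS and 3379 to 3756 in HS libraries (-0.02 ± 0.06, adjusted p = 0.86). *Cbr-wago-1*, paired with *wago-5*, went from 4746 to 5112 in NHS to 5929 to 6590 in HS libraries (0.36 ± 0.06, adjusted p = 0.0046), and to -0.03 with equal totals. In *C. briggsae* 4.5% of 18470 genes tested were up-regulated and 8.13% were higher. *Cbr-hrde-1* and *Cbr-wago-1* carry the names of other *C. elegans* genes, so these pairs are not one-to-one by name, and the difference between the species was not tested.

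The polymerases, Dicer and Dicer partners had the lowest median of the role groups, at -0.26 relative to all genes. Of these 14 genes 7 were lower and 0 higher. All had a mean of at least 100, where 18.8% of all genes were lower and 11.7% higher, and these shares also stand beside the counts of the role groups that follow. The 7 lower genes were *drh-1*, *rrf-3*, *drh-3*, *eri-1*, *rde-4*, *eri-12* and *dcr-1*, of which *eri-12* was placed here by its family name alone.

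*drh-1*, a Dicer-related helicase of antiviral silencing, lies on chromosome IV from 6607376 to 6613353. It had 1865, 1821 and 1827 normalized counts in NHS and 1316, 1292 and 1326 in HS libraries. The replicates were close to each other in both groups, and the HS mean was 71.3% of the NHS mean (log2 fold change -0.49 ± 0.05, limma, adjusted p = 0.00015, n = 3 and 3). *drh-3*, a related helicase that works with the polymerases, had 1467, 1534 and 1539 in NHS and 1206, 1082 and 1243 in HS libraries (-0.36 ± 0.07, adjusted p = 0.0024). *dcr-1*, the Dicer gene itself, was abundant and moved less, from 3418, 3402 and 3401 to 2905, 2851 and 3053 (-0.21 ± 0.05, adjusted p = 0.0085). With equal upper quartiles the log2 fold change of *dcr-1* was -0.0022 (limma, adjusted p = 0.98). *rde-4*, which encodes the double-stranded RNA-binding partner of Dicer, and *eri-1*, which encodes an exonuclease that limits silencing, had log2 fold changes of -0.32 and -0.36.

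*rrf-3*, which makes primary endogenous small RNAs, had 1428, 1504 and 1532 normalized counts in NHS and 1145, 1124 and 1163 in HS libraries (log2 fold change -0.38 ± 0.06, limma, adjusted p = 0.00088). *rrf-1*, which makes secondary small RNAs in somatic cells, had 2415, 2586 and 2660 in NHS and 2420, 2091 and 2419 in HS libraries. Its groups overlapped, and its log2 fold change of -0.15 ± 0.07 did not pass (adjusted p = 0.13). The germline polymerase gene *ego-1* is not among the members by name. It lies beside *rrf-1* and had 991, 1010 and 994 in NHS and 830, 789 and 727 in HS libraries (-0.35 ± 0.07, adjusted p = 0.0030). The members *eri-3*, *eri-5*, *eri-6*, *eri-7*, *eri-9* and *rrf-2* had log2 fold changes from -0.24 to 0.17 and did not pass.

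Mutator and maturation factors came next, with a median of -0.22 relative to all genes. Of 11 genes, 3 were lower and 0 higher. All 3 are known from the step between the primary Argonaute and the polymerases.

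*rde-8*, which encodes an endonuclease that cuts target RNA, lies on chromosome IV from 7101379 to 7103261. It had 353, 341 and 353 normalized counts in NHS and 214, 245 and 248 in HS libraries. At 67.7% of the NHS mean it had the lowest log2 fold change of all 65 members, -0.56 ± 0.10 (limma, adjusted p = 0.0014, n = 3 and 3). *rde-10*, which promotes amplification, had 622, 568 and 585 in NHS and 418, 414 and 428 in HS libraries (-0.49 ± 0.08, adjusted p = 0.00076). *rde-2*, which encodes the partner of the exonuclease MUT-7, had 590, 633 and 555 in NHS and 431, 417 and 452 in HS libraries (-0.45 ± 0.08, adjusted p = 0.0019). For each of the 3 genes every HS library was below every NHS library.

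The rest of the mutator group did not pass. *mut-16*, the scaffold of mutator foci, had 1209, 1274 and 1183 normalized counts in NHS and 1135, 1095 and 1313 in HS libraries (log2 fold change -0.05 ± 0.08, limma, adjusted p = 0.62). *henn-1*, the methyltransferase that protects the ends of some small RNAs, had 349, 394 and 428 in NHS and 380, 318 and 419 in HS libraries (-0.07 ± 0.12, adjusted p = 0.66). In both the HS values lay within or across the NHS range. *rde-12*, which encodes a DEAD-box helicase, had 6116, 6622 and 6284 in NHS and 6671, 6287 and 6557 in HS libraries (0.04 ± 0.05, adjusted p = 0.60, and -0.32 with equal totals). The others, *mut-2*, *mut-7*, *mut-14*, *mut-15* and *rde-11*, had log2 fold changes from -0.22 to -0.01 and adjusted p-values from 0.034 to 0.97.

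**Figure D3:**
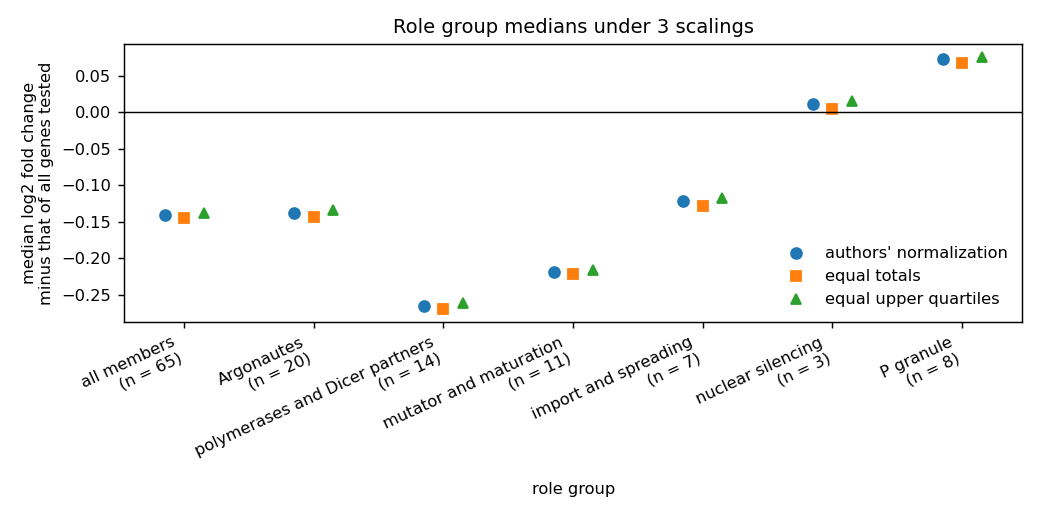
Median log2 fold change (HS against NHS) of each role group minus the median of all genes tested, under the authors' normalization, equal totals and equal upper quartiles. The polymerases and Dicer partners are lowest at -0.26 and the P granule genes highest at 0.07, a value that moves between 0.011 and 0.15 when 1 library is left out. Each scaling moves all genes nearly alike, so the 3 values of a group lie close by construction.

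Import and spreading genes had 2 lower and 0 higher of 7, with a median of -0.12 relative to all genes. *sid-1*, the channel that takes double-stranded RNA into cells, lies on chromosome V from 5119970 to 5126916. Its normalized counts were 424, 424 and 428 in NHS and 332, 324 and 334 in HS libraries. The replicates were tight and the groups far apart relative to them, with a log2 fold change of -0.37 ± 0.08 (limma, adjusted p = 0.0046, n = 3 and 3). *sid-3*, a tyrosine kinase gene needed for import, had 1111, 1100 and 994 in NHS and 829, 915 and 839 in HS libraries (-0.31 ± 0.07, adjusted p = 0.0072). *rsd-6*, needed for spreading into the germline, had 1948, 2006 and 2043 in NHS and 1908, 1953 and 1981 in HS libraries, and its groups overlapped (-0.04 ± 0.05, adjusted p = 0.60). *sid-2*, which takes up double-stranded RNA from the gut, *sid-5*, *rsd-2* and *rsd-3* had log2 fold changes from -0.29 to -0.02 and did not pass.

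The 3 nuclear factors did not pass. *nrde-2*, which acts with the nuclear Argonautes, had 3361, 3673 and 3469 normalized counts in NHS and 3668, 3737 and 3454 in HS libraries (log2 fold change 0.05 ± 0.06, limma, adjusted p = 0.53, and -0.31 with equal totals). *nrde-1* and *nrde-4*, both chosen after their values were seen, had groups that did not overlap, in opposite directions. For *nrde-1* the log2 fold change was 0.25 ± 0.07 (adjusted p = 0.015, and -0.10 with equal totals), and for *nrde-4* it was -0.34 ± 0.09 (adjusted p = 0.010, above the threshold before rounding). *hrde-4* had 752, 764 and 818 in NHS and 828, 825 and 847 in HS libraries (0.10 ± 0.07, adjusted p = 0.25, and -0.26 with equal totals), and *hrde-2* had a log2 fold change of -0.10 and did not pass.

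Relative to all genes, the P granule genes had a median log2 fold change of 0.07. It rested on single libraries, at 0.047, 0.14 and 0.030 when NHS replicate 1, 2 or 3 was left out and at 0.011 and 0.15 when HS replicate 1 or 3 was. Of 8 genes 1 was higher and 1 was lower, both from the GLH family of DEAD-box helicases related to Vasa. *glh-1*, the main GLH gene, on chromosome I from 6854478 to 6857536, had 3398, 3433 and 3454 normalized counts in NHS and 2921, 3012 and 2789 in HS libraries. The HS mean was 84.8% of the NHS mean (log2 fold change -0.24 ± 0.05, limma, adjusted p = 0.0055, n = 3 and 3). With equal upper quartiles the log2 fold change of *glh-1* was -0.026 (limma, adjusted p = 0.72). *glh-3*, on the same chromosome from 5792321 to 5795114, had 198, 169 and 153 in NHS and 236, 255 and 258 in HS libraries. It moved the other way, to 144% of its NHS mean (0.53 ± 0.12, adjusted p = 0.0059), and 0.18 with equal totals (adjusted p = 0.26).

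*pgl-1*, the gene of a P granule scaffold protein, had 2210, 2297 and 2105 normalized counts in NHS and 2198, 2213 and 1952 in HS libraries. The groups overlapped (log2 fold change -0.06 ± 0.07, limma, adjusted p = 0.52). *pgl-3*, *glh-2*, *glh-4* and *deps-1* had log2 fold changes from 0.08 to 0.15 and did not pass. *pgl-2*, chosen after its values were seen, had 244, 257 and 224 in NHS and 325, 350 and 280 in HS libraries, groups that did not overlap (0.39 ± 0.11, adjusted p = 0.018).

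Levels per length were compared in normalized counts per kb of exon, as NHS means. *rde-12* was the most abundant member at 1930 ± 78.5 (SD, n = 3), followed by *eri-12* at 1278 ± 50.1, *glh-1* at 1238 ± 10.1 and *rde-4* at 1016 ± 70.9. *eri-12* and *glh-1* differed by less than the SD of *eri-12*. The abundant end of the order thus held a helicase listed here under mutator and maturation, a Dicer partner and a P granule helicase. The first Argonaute was *ppw-1* at 770 ± 42.4. At the other end stood 4 Argonautes, *wago-5* at 7.35 ± 1.59, *alg-3* at 4.44 ± 0.43, *wago-10* at 0.38 ± 0.20 and *alg-4* at 0.13 ± 0.11. The next member above them was *glh-2*, at 67.8 ± 10.1. After heat shock the 3 up-regulated genes reached means of 38.1 (*wago-5*), 5.47 (*wago-10*) and 3.30 (*alg-4*) normalized counts per kb, still below *glh-2*.

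**Figure D4:**
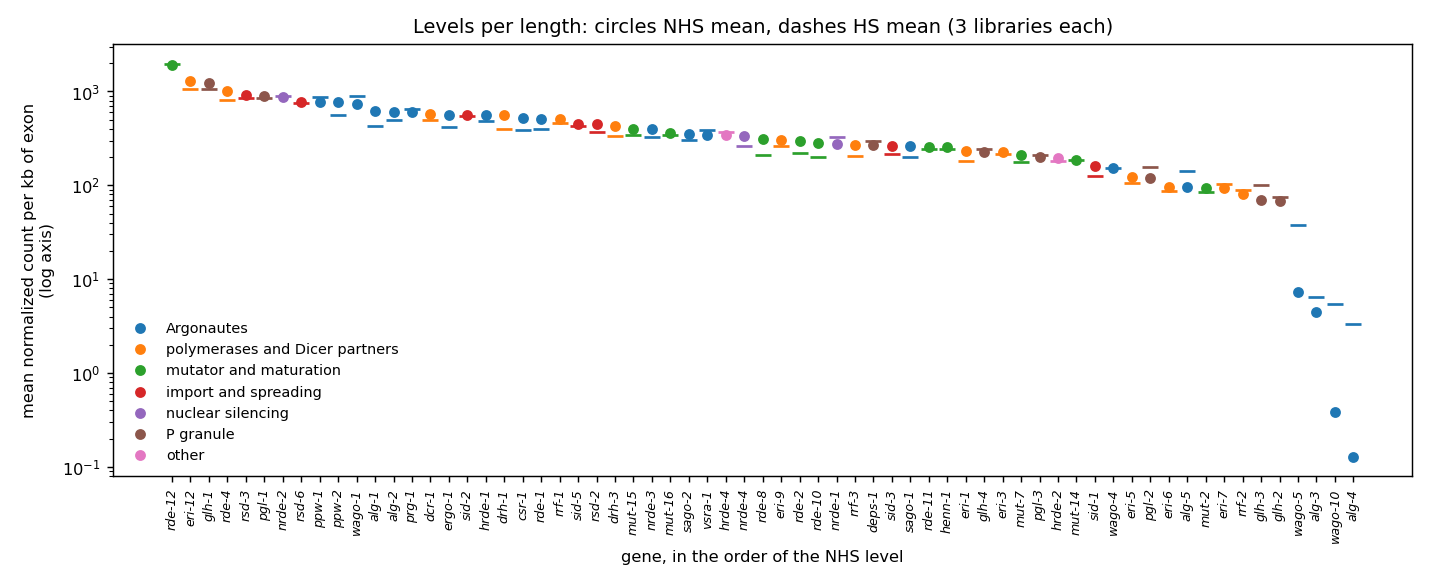
Mean normalized count per kb of exon of the 65 members on a log axis, ordered by the NHS mean, with circles for NHS and dashes for HS (3 libraries each) and colours for role. *rde-12* is highest at 1930, and *wago-5*, *alg-3*, *wago-10* and *alg-4* form a separate low end at 7.35 and below in NHS.

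Related genes outside the member families were examined in 4 lists, chosen with earlier results of these data known. In the piRNA production list, 0 of 14 genes were called in either direction and 1 was higher (all genes tested 15.8%). That gene was *tofu-1*, which acts in piRNA maturation, with 353, 375 and 377 normalized counts in NHS and 503, 482 and 469 in HS libraries (log2 fold change 0.40 ± 0.08, limma, adjusted p = 0.0032, and 0.04 with equal totals). The list's median was 0.01 relative to all genes. *tofu-6* had a log2 fold change of -0.33 (adjusted p = 0.013) and *pid-1* one of 0.35 (adjusted p = 0.091).

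Among 17 other silencing factors tested, 0 were called, 4 were lower and 0 higher, and the median was -0.14 relative to all genes. All 17 had a mean of at least 100, where 18.8% of all genes were lower and 11.7% higher. With equal upper quartiles 0 of the 17 were lower and 1 was higher. *enri-1*, known from work on inherited silencing, had 233, 245 and 279 normalized counts in NHS and 175, 135 and 179 in HS libraries (log2 fold change -0.63 ± 0.14, limma, adjusted p = 0.0049). *znfx-1*, the helicase gene of a germ granule next to the P granule, had 3628, 3768 and 3736 in NHS and 2941, 2933 and 3070 in HS libraries (-0.32 ± 0.05, adjusted p = 0.0011). Both were lower in every HS library. The other 2 lower genes were *ego-1*, given above, and *morc-1*.

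All 10 genes of the microRNA pathway list had a mean of at least 100, where 18.8% of all genes were lower and 11.7% higher. Of these 10, 0 were called, 1 was lower and 1 higher. The lower one was *drsh-1*, the nuclease gene that releases microRNA precursors, with a log2 fold change of -0.38 ± 0.09 (limma, adjusted p = 0.0059, n = 3 and 3). *nhl-2*, a cofactor of microRNA silencing, was the higher one, at 0.48 ± 0.11 (adjusted p = 0.0080), or 0.12 with equal totals. *tsn-1*, the most abundant of the genes named here, had 13398 to 15637 normalized counts in NHS and 11640 to 13455 in HS libraries, groups that overlapped (-0.21 ± 0.07, adjusted p = 0.040).

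The last list held other germ granule genes, and its difference from the PGL and GLH genes was not tested. Of 14 tested, 3 were up-regulated, 6 in all were higher (all genes tested 15.8%) and 1 was lower (12.9%). All of these 6 but *ife-1* had means under 100, where 21.2 to 21.8% of all genes were higher. With equal totals 3 of the 14 were higher and 6 lower, and with equal upper quartiles 7 and 0. The 3 up-regulated genes had means under 100, where 20.1 to 21.8% of all genes were up-regulated. They were *meg-2*, *mex-1* and *meg-1*, known from the embryo, where MEG proteins shape P granules and MEX-1 is a maternal RNA-binding protein of the germ lineage.

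*meg-2* had 1.97, 3.34 and 9.76 normalized counts in NHS and 83.3, 136 and 80.0 in HS libraries. Even the highest NHS library was far below the lowest HS library (log2 fold change 4.24 ± 0.46, limma, adjusted p = 0.00020, n = 3 and 3). *mex-1* had 22.6, 34.3 and 27.8 in NHS and 141, 79.4 and 162 in HS libraries (2.09 ± 0.28, adjusted p = 0.00037). *meg-1*, which neighbours *meg-2* on chromosome X, had 0, 0.84 and 0 in NHS and 7.66, 5.20 and 2.76 in HS libraries. With an NHS mean of 0.28 it passed the filter only through its HS libraries. About 1 read stood against 15, a ratio of 18.4 with an exact 95% counting interval of 2.82 to 773 and a fitted log2 fold change of 2.26 ± 0.55 (adjusted p = 0.0083). That call was lost with a pseudocount of 5 (0.93, adjusted p = 0.014) and when any single NHS replicate or HS replicate 2 was left out, with adjusted p-values up to 0.030.

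*pos-1*, the gene of another maternal RNA-binding protein, was chosen after its values were seen, at 44.2, 46.8 and 46.1 in NHS and 86.2, 83.2 and 105 in HS libraries. It fell just short of a 2-fold change (log2 fold change 0.98 ± 0.17, limma, adjusted p = 0.0013). *oma-2* (0.84) and *ife-1* (0.35) were the other higher genes of the list, and *lotr-1* (-0.48) was the lower one.

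**Figure D5:**
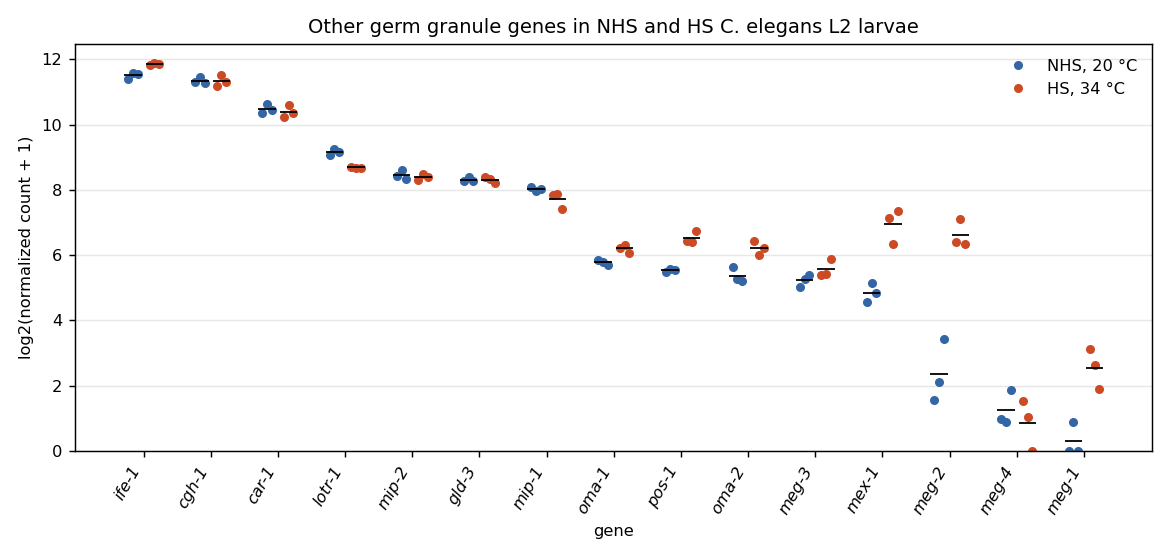
Level of 15 germ granule genes outside the member families in every library, as log2(normalized count + 1), with NHS libraries in blue, HS libraries in red and a bar at each group mean. The HS libraries of *meg-2*, *mex-1* and *meg-1* lie above their NHS libraries, with log2 fold changes of 4.24, 2.09 and 2.26.

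Markers of the larval tissues gave the following medians beside the members. Relative to all genes, the median log2 fold change was -0.58 for 5 neuron markers, of which 3 were lower, 0.35 for 4 muscle markers, of which 3 were higher, 0.26 for 4 intestine markers, of which 2 were higher and 1 lower, and -0.77 for 4 hypodermis markers, of which 1 was lower and the groups of 3 overlapped, with 0 called in each list. All of these markers had a mean of at least 100, where 18.8% of all genes were lower and 11.7% higher. The summed neuron markers lay at 11698 to 12588 normalized counts in NHS and 9653 to 10036 in HS libraries. For the muscle markers the sums were 465052 to 513453 and 581479 to 637812, with a larger total in the HS libraries. These counts depend on the scaling too. With equal totals 0 muscle markers were higher and 5 neuron markers lower, and with equal upper quartiles 4 and 1. Intestine markers then had 1 higher and 2 lower with equal totals, and 3 and 0 with equal upper quartiles. The part of such shifts in the lower values of members was not tested.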

How the data were processed

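Total RNA libraries were made from whole L2 larvae, 3 NHS and 3 HS in each species, 12 in all. As deposited, values are a signal per gene called normalized counts, for which the authors assigned single-end reads to mRNA transcripts with Salmon 0.13.1 and scaled the gene estimates of the 6 libraries of a species with DESeq2 1.18.1. The submitters' notes name ce11. Reads shared by related genes were divided by estimation, and the values are not per length. From 84.0 to 85.8% of the low values in a *C. elegans* library were whole multiples of 1 read within 0.05 reads, too few to recover counts, so no count model was used. Depth was estimated as the library sum over the value of 1 read, and the reads behind low genes came from the same step. One column of the *C. briggsae* table bears a strain name off by a digit and was read as the missing replicate 3 of AF16 NHS. No other column was left out (0), and 0 pairs of libraries were identical.

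The main fit was limma 3.58.1 (trend, robust variances, R 4.3.3, statmod 1.5.0) on log2(normalized count + 1), two-sided, for genes with a mean of at least 2 in the 6 libraries of the species. Benjamini-Hochberg adjustment ran over all genes tested. Thresholds were those of the study. Ratios of reads were corrected for depth and given exact 95% intervals. Python 3.11.15, pandas 2.3.3, numpy 2.4.6, scipy 1.17.1 and matplotlib 3.10.9 were used. Names, positions and exon lengths came from Ensembl release 115 (WBcel235, the same assembly as ce11), with names for 19868 of 20213 genes. Of the listed genes outside the families, *tofu-3*, *zsp-1*, *pup-1* and *cde-1* had no match. Sequences of genes and promoters were not analysed here.

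On simulated data, 94% of 100 log2 changes of 1.5 and 100% of 100 log2 changes of 2 were called among 16067 genes, and 0 of 15867 unchanged genes. Changes were simulated in genes above an NHS mean of 10, and weaker genes were not covered. Noise in all 6 libraries followed a smooth curve of spread against level, taken from the NHS libraries. The spread of the HS libraries, spread particular to a gene and log2 changes below 1.5 were not covered either.

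Members and lists were chosen with earlier results of these data known, and lists were described by counts and medians without a test. Named members were the called ones, up to 3 per role and direction past the adjusted p, the most abundant of each role and a set of well-known genes. From the other lists, the called genes and up to 3 with the largest change were named. Any gene beyond this rule is either marked as picked with its values known or given only as a name, a log2 fold change or a range. Exceptions are genes named for their place in the order of levels per length, and the tissue markers. Other settings tried were equal totals, equal upper quartiles, pseudocounts of 0.5 and 5, a minimum mean of 10 or none, a term for the replicate number, an adjusted p under 0.05, no minimum fold change and leaving out each library. The level classes and the alternatives for *C. briggsae* were chosen after seeing the data.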

Additional observations from a re-analysis of the deposited data

How the results depend on the processing

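With a mean of at least 10, 1129 of all genes and 1 member (*wago-5*) were up-regulated, since *wago-10* and *alg-4* were no longer tested, and 3 members were higher. Without a minimum fold change, 2765 of all genes and 5 members passed as higher and 2266 and 21 as lower. With equal totals 1326 of all genes were down-regulated, 44 members were lower and 3 higher, and the log2 fold changes of *nrde-2* (-0.31), *prg-1* (-0.25), *rde-12* (-0.32) and *Cbr-wago-1* (-0.030) turned negative. With equal upper quartiles 250 of all genes were down-regulated, 2 members were lower and 13 higher. At an adjusted p under 0.05, 8 members were higher. The members' median relative to all genes was -0.18 with no filter and -0.10 with a mean of at least 10. Leaving out single libraries, up-regulated genes numbered 1137 (without HS replicate 1) to 1611, higher members 3 to 5 and lower members 6 to 19, and the relative medians ranged from -0.19 (without NHS replicate 1) to -0.14 for the members and from -0.13 to -0.082 (without HS replicate 3) for the Argonautes. The cause of these shifts was not tested.

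The main fit did not pair the libraries by replicate number, and whether these numbers pair them was not settled. Correlations of the deviations of equally numbered NHS and HS libraries were 0.09, 0.06 and 0.15, and each was above those with the other numbers. With the replicate number as a block, 1916 of all genes were up- and 627 down-regulated, as were 3 and 0 members, with 7 members higher and 22 lower. Depth limits *wago-10*, *alg-4* and *meg-1*, which rest on 1 to 4 reads in NHS.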
